A study of Mus musculus with 6 samples.

Results

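The 49 genes described here encode the actin filament and its actomyosin machinery: tropomyosins, actins, crosslinkers, non-muscle myosin, the calponin family, ezrin/radixin/moesin proteins, filament turnover factors, formins, small GTPases and ROCK kinases, and the transcription factor SRF with its cofactors. They were chosen by gene symbol, and where a gene had several array rows, the brightest by its mean over the 6 arrays was kept. Of the 49 genes, 48 had a row among the 22180 genes with a single symbol, and Rock2 was not analysed here. Mkl1 and Mkl2 were found under their current symbols, Mrtfa and Mrtfb. A total of 47 members passed the filter on dim genes, which kept 16724 genes in all, and Actn2 lay under it.

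Transcript levels came from the cortices of 6 mouse embryos at E12.5, each sample from its own embryo and hybridised to 1 Affymetrix whole-transcript array. The 3 control embryos carry no further genotype in the labels. The other 3 embryos, called DKO (double knock-out), were Lats1F/F;Lats2F/F;Nestin-Cre. Nestin-Cre acts in neural progenitors and their descendants, so vessels, meninges and blood cells in the same dissection are not its main targets. No embryo was treated. The comparison asked which transcripts differ between DKO and control cortex.

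Lats1 and Lats2 are the Hippo pathway kinases that hold back the transcriptional coactivators YAP and TAZ. Actin and this pathway are linked in both directions: contractile filaments and RhoA activity favour nuclear YAP and TAZ, and YAP and TAZ with their TEAD partners raise transcription of cytoskeletal genes. Many of the same genes are also driven by SRF with the MRTF cofactors, which are held in the cytoplasm by monomeric actin and released when filaments form. In the E12.5 cortex, progenitors keep a belt of actomyosin at the ventricular surface, where they attach to each other and divide.

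Lats1 was lower in DKO cortex by a log2 fold change of -0.91 ± 0.14 (limma SE, adjusted p = 0.0189), a call lost without control 1, control 3, DKO 1 or DKO 3 (adjusted p up to 0.0875). The log2 fold change of Lats2 was 0.24 ± 0.10 (SE, limma adjusted p = 0.285). It was at 7.16, 6.83 and 7.11 in control and 7.36, 7.18 and 7.27 in DKO arrays, so every DKO array lay above every control. The position of the Lats2 probes relative to the deleted part was not stated in the sources used here. Of 10 cortex markers, 9 had a row, and their mean log2 value lay at 9.38 to 9.51 in control and 9.25 to 9.30 in DKO arrays. Of the 9, 7 had a lower and 2 a higher mean in DKO, from -0.44 for Eomes to 0.24 for Nes in log2 fold change. None was called, and 7 had an unadjusted limma p under 0.05, against 6.39% (higher) and 9.18% (lower) of all genes. DKO 2 stood apart from the other DKO arrays in markers of non-neural cells. The mean of 10 endothelial markers was 7.07 in DKO 2 against 7.52 and 7.65 in the other DKO arrays and 7.59 to 7.76 in controls. The mean of 4 erythroid markers was 6.78 in DKO 2 and 7.49 to 7.67 in the other 5 arrays. Values are therefore also given without DKO 2 where that changed a call.

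The actomyosin genes were mostly higher in DKO cortex, by amounts that were small for most members and large for a few. The tropomyosin Tpm1 rose 4.1-fold, the alpha-actinin Actn1 1.84-fold, the filamin Flnc 1.5-fold, and the non-muscle myosin genes Myh9 and Myl12a 1.36-fold each. Of 47 members tested, 5 rose and 0 fell at a limma adjusted p under 0.05, or 10.6% of the members against 1.72% of all genes tested (1.36% higher and 0.359% lower). At an unadjusted limma p under 0.05, 16 members were higher and 1 was lower, against 6.39% and 9.18% of all genes. The mean was higher in DKO for 36 of 47 members, or 76.6%, against 39.8% of all genes. All 3 DKO arrays lay above all 3 control arrays for 17 members, or 36.2%, against 8.22% of all genes, and below them for 3 members, against 13.4% of all genes. The median log2 fold change was 0.13 over the members and -0.03 over all genes tested.

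The count of 5 changed when an array was left out. It was 2, Tpm1 and Actn1, without control 1, control 2, control 3, DKO 1 or DKO 3, each with fewer arrays in the fit. It was 7 without DKO 2, where Tpm4 and Cald1 were added. DKO 2 was the lowest of the DKO arrays for 36 of the 47 members, and the share among all genes was not computed. Over the members, the median deviation from the control mean was 0.17 in DKO 1, 0.04 in DKO 2 and 0.12 in DKO 3. Over all genes tested it was -0.02, -0.04 and -0.01. The median log2 fold change of the members was 0.19 without DKO 2 and 0.06 without DKO 1.

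**Figure D1:**
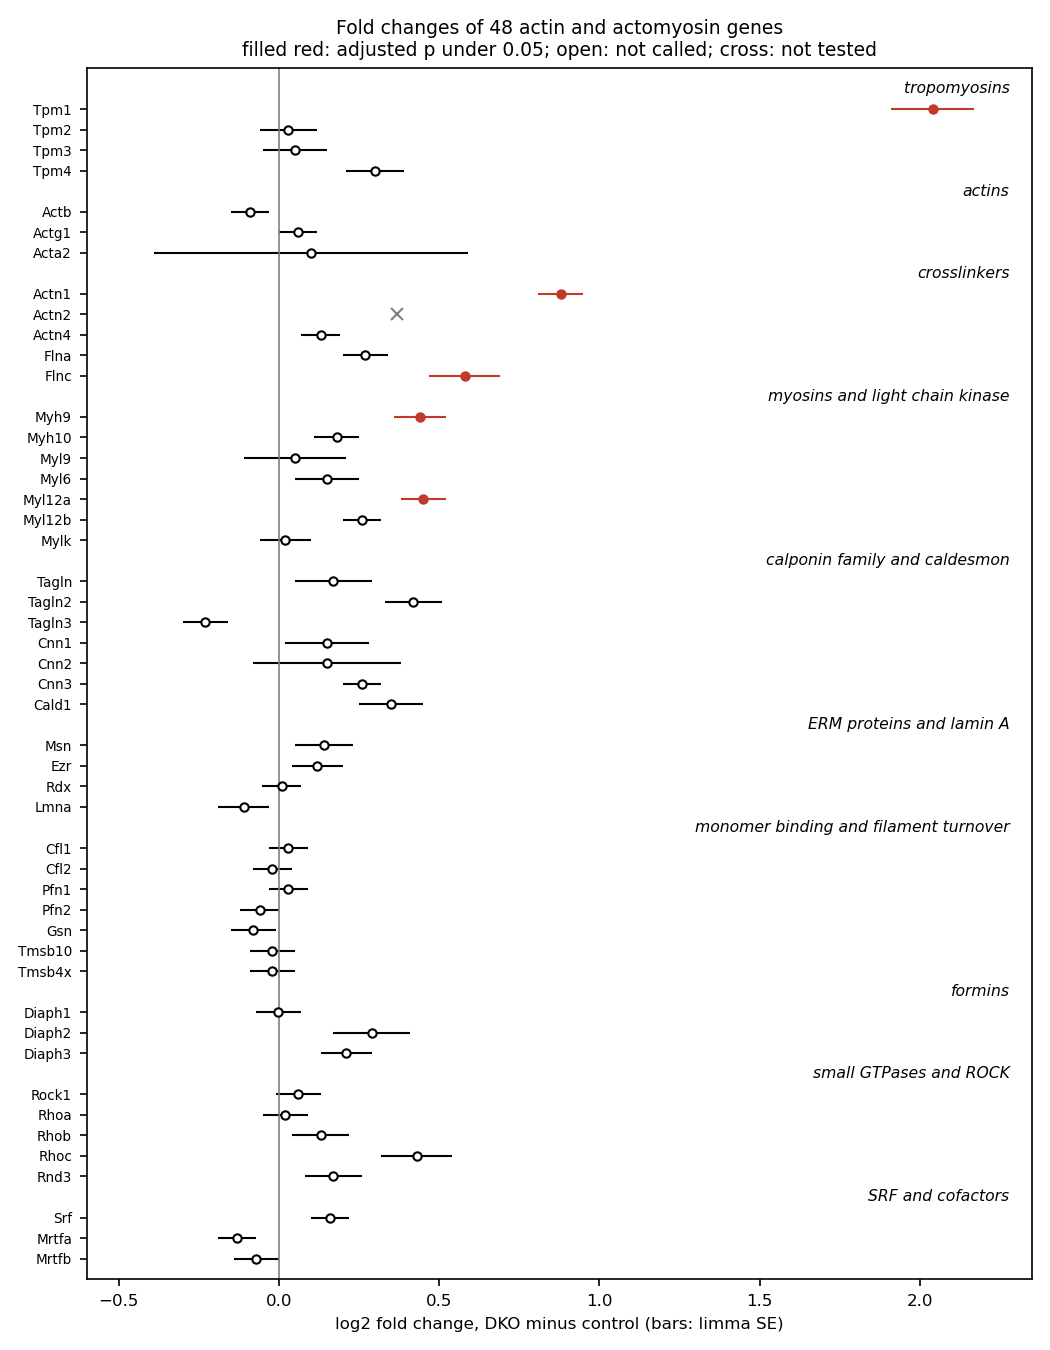
Log2 fold change, DKO minus control, of the 48 members with a row, in groups by role, with the limma SE as the bar for the 47 tested (3 arrays per group) and a cross for Actn2, which was not tested. The 5 filled points are the members called higher; Tpm1 at 2.04 lies far to the right of the others, while the turnover factors lie between -0.08 and 0.03.

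**Figure D2:**
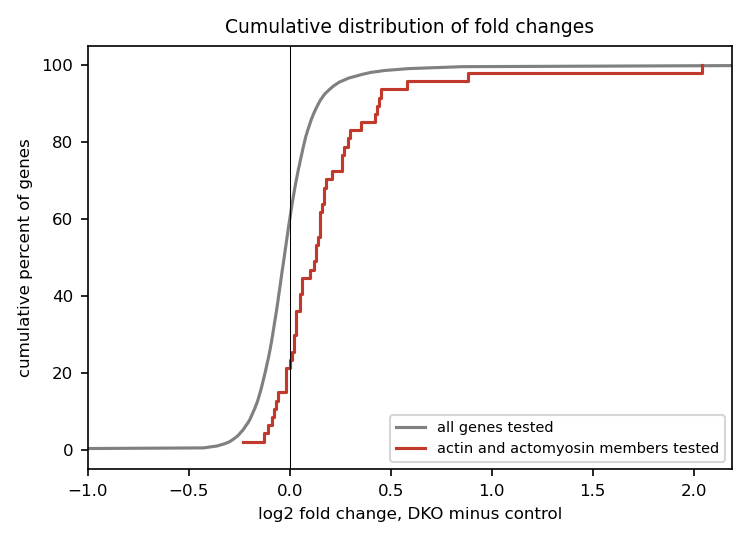
Cumulative percent of genes (vertical axis) against log2 fold change, DKO minus control (horizontal axis), for all 16724 genes tested in grey and the 47 members in red. The red curve lies to the right of the grey one, with medians of 0.13 and -0.03.

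The promoters of 4 members are shown. Tpm1 and Actn1 had the largest log2 fold changes among the members, and Myl9 and Srf carry an exact match to the SRF site. They were picked with these results known, and what raised Tpm1 and Actn1 was not tested. Each promoter is the stretch of 250 bases before the transcription start, 5′ to 3′ on the gene's strand, from RefSeq (GRCm38.p6). The CArG box, the site bound by SRF, and GGAATG, a core of the TEAD site that reads CATTCC on the other strand, were searched on both strands and are in capitals. The GG that ends a CArG box could also begin GGAATG, but no matches overlapped in the windows shown.
Tpm1, chr9:67049214-67049463, minus strand: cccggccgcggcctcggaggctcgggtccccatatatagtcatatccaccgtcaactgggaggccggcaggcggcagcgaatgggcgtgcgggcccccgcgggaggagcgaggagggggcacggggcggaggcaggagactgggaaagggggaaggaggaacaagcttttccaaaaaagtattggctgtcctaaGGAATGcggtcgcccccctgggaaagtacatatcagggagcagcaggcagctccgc
Actn1, chr12:80260364-80260613, minus strand: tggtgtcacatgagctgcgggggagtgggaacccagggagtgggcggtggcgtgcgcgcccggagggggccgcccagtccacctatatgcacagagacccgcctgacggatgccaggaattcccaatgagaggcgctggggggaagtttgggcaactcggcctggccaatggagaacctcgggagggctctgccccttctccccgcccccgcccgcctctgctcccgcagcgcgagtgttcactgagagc
Myl9, chr2:156775214-156775463, plus strand: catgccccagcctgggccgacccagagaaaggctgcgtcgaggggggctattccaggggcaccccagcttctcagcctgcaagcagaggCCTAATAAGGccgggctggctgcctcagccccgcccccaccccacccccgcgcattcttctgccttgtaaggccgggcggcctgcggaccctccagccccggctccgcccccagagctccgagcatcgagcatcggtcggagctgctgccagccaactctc
Srf, chr17:46556163-46556412, minus strand: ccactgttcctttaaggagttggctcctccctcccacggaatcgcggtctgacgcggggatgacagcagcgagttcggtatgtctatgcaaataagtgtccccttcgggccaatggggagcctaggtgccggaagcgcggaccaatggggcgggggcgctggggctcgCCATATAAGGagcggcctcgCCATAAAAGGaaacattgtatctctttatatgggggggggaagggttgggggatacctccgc

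Only exact CArG boxes were searched, that is CC, 6 letters of A or T, and GG. Near matches, such as ccatatatag in the Tpm1 window and ccctatatgg in the Acta2 window, were not counted. In these windows Tpm1 held 1 GGAATG, whose first base lay 56 bases before the start, and no exact CArG box. Actn1 held neither motif. Myl9 held 1 CArG box and Srf 2, beginning 82 and 62 bases before the start. The table had 59 promoters for 45 members. Actb, Tagln, Rock1 and Diaph1 had none there, so their promoters were not searched. A CArG box was present in 6 of these promoters (10.2%), those of Actg1, Cnn2, Myl6, Myl9, Rnd3 and Srf, against 1.47% of all 32851 promoters of the same length. None of these 6 genes was called in the DKO comparison (limma), but neither were 42 of the 47 members tested. The 6 promoters of the 5 called members held 0 CArG boxes, and 6 promoters are too few to set against 10.2%. GGAATG was present in 11 member promoters (18.6%) against 12.6% of all promoters. Among the 6 promoters of called members it was in 2, of Flnc and Tpm1, again too few to compare. A match describes letters in this window and not a bound site.

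Tropomyosins are coiled-coil proteins that lie along the actin filament and decide which myosins and severing factors reach it. Tpm1 stood at 7.92, 7.72 and 7.76 in control 1 to 3 and at 10.02, 9.52 and 9.97 in DKO 1 to 3, all log2 values. The groups were far apart, with DKO 2 the lowest of the DKO arrays and still well above every control. The log2 fold change was 2.04 ± 0.13 (SE, n = 3 per group, limma adjusted p = 0.000253), the fifth largest increase among the genes tested (rank 5 of 16724). The call held whichever of the 6 arrays was dropped, with log2 fold changes of 1.94 to 2.20.

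The other tropomyosins did not pass the test. Tpm4, one of several tropomyosins of non-muscle stress fibres, stood at 10.52, 10.48 and 10.41 in control and 10.83, 10.57 and 10.90 in DKO arrays. Its groups did not overlap, but the log2 fold change of 0.30 ± 0.09 (SE) did not pass the test (limma adjusted p = 0.165; 0.0382 without DKO 2). A further row of Tpm4 had a log2 fold change of 0.09, with overlapping groups. Tpm2, best known from muscle, was at 0.03 ± 0.09 (SE), and Tpm3 at 0.05 ± 0.10 (SE) with 0.09 in its other row. Whether a row lies in the gene itself or in a near-identical copy was not stated in the sources used here.

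Differences between relatives were tested within each array. The log2 value of Tpm1 minus that of Tpm2 was higher in DKO by 2.00 ± 0.08 (SE), Tpm1 minus Tpm3 by 1.99 ± 0.19 (SE) and Tpm1 minus Tpm4 by 1.74 ± 0.09 (SE), with no overlap of the groups. Only these shifts are read, since levels of different genes cannot be set against each other on an array. For each of these differences p was 0.1 in an exact permutation test (two-sided), the smallest that 3 arrays against 3 allow (adjusted p = 0.133 over 12 such pairs).

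None of the 3 actin genes passed (limma), and 0 had an unadjusted p under 0.05. Actb, which encodes cytoplasmic beta-actin, was at 10.38, 10.46 and 10.41 in control and at 10.38, 10.30 and 10.32 in DKO arrays, a log2 fold change of -0.09 ± 0.06 (SE, limma adjusted p = 0.547). Its highest DKO array equalled its lowest control to 2 decimals. Actg1, cytoplasmic gamma-actin, was at 0.06 ± 0.06 (SE) in the row used. It had 6 rows, of which 2 held identical values in all arrays, and the rows ranged from -0.03 to 0.31 in log2 fold change, so its value is uncertain.

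Acta2, the smooth muscle actin of vessel walls, was the most variable member. Its control arrays were at 8.31, 8.23 and 7.93, while DKO 1 stood at 9.55, DKO 2 at 7.14 and DKO 3 at 8.09. The DKO arrays thus spanned 2.41 on the log2 scale, from below to above every control. The log2 fold change of 0.10 ± 0.49 (SE, limma adjusted p = 0.95) turned to -0.55 without DKO 1.

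Crosslinkers tie filaments into bundles and networks. All 4 members tested had every DKO array above every control array, against 8.22% of all genes tested, and 2 were called (limma). Of 14 other bundling and crosslinking genes tested, 3 had every DKO array above every control array and 4 had every one below. Actn1, the alpha-actinin of stress fibres and adhesion sites, stood at 9.18, 9.04 and 9.20 in control and at 10.00, 9.96 and 10.10 in DKO arrays. The spread within each group was small against the gap between them, and the log2 fold change was 0.88 ± 0.07 (SE, limma adjusted p = 0.000606). With single arrays dropped it lay between 0.83 and 0.91, and the call held in all 6 such fits.

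Flnc, a filamin best known from muscle, was at 6.93, 6.96 and 7.10 in control and at 7.67, 7.35 and 7.73 in DKO arrays. It rose by 0.58 ± 0.11 (SE, limma adjusted p = 0.0336). With single arrays dropped the call held only without DKO 2 (adjusted p = 0.005), and the adjusted p rose to 0.137 when control 1 was dropped. Flna, the widely expressed filamin that links actin to membrane receptors, was at 9.78, 9.81 and 9.87 in control and 10.16, 10.00 and 10.10 in DKO arrays. Its log2 fold change of 0.27 ± 0.07 (SE) did not pass (limma adjusted p = 0.103).

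Actn4, the other non-muscle alpha-actinin, had a log2 fold change of 0.13 ± 0.06 (SE, limma adjusted p = 0.343). The log2 value of Actn1 minus that of Actn4 was higher in DKO by 0.75 ± 0.09 (SE), and for Flna minus Flnc the shift was -0.32 ± 0.09 (SE), each with groups apart and an exact permutation p of 0.1. Actn2, the alpha-actinin of striated muscle, lay under the filter on dim genes. It was at 4.42, 4.43 and 4.70 in control and 4.94, 4.85 and 4.86 in DKO arrays, and was not tested.

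**Figure D3:**
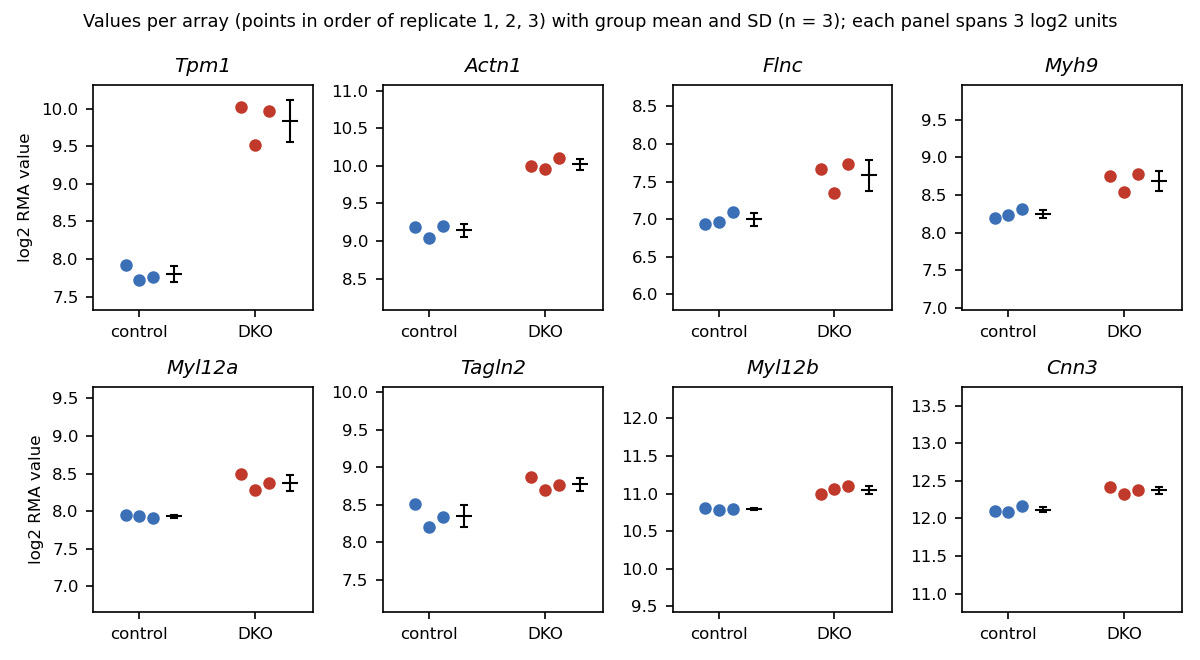
Log2 values of 8 members in each array (points, replicates 1 to 3 from left to right) with the group mean and SD (n = 3); every panel spans the same 3 log2 units. The control and DKO points do not overlap in any of the 8 panels, and the gap is widest for Tpm1.

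Non-muscle myosin II pulls on actin filaments and consists of heavy chains and regulatory and essential light chains. All 7 members of this group had a higher mean in DKO, against 39.8% of all genes tested. Of the 7, 2 were called higher (limma), against 1.36% of all genes, and 5 did not pass. Myh9, the heavy chain of non-muscle myosin IIA, was at 8.20, 8.24 and 8.31 in control and at 8.75, 8.54 and 8.78 in DKO arrays, and rose by 0.44 ± 0.08 (SE, limma adjusted p = 0.0336). Myh10, the IIB heavy chain that is prominent in neural tissue, went from 9.05 ± 0.04 (SD, n = 3) to 9.23 ± 0.08 (SD, n = 3). Its log2 fold change of 0.18 ± 0.07 (SE) did not pass (limma adjusted p = 0.245), although the groups did not overlap. The log2 value of Myh9 minus that of Myh10 was higher in DKO by 0.26 ± 0.08 (SE), with an exact permutation p of 0.1.

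The regulatory light chains of this myosin are the subunits that kinases phosphorylate to start contraction. Myl12a was at 7.95, 7.94 and 7.91 in control and at 8.49, 8.28 and 8.37 in DKO arrays, and rose by 0.45 ± 0.07 (SE, limma adjusted p = 0.0178). Its second, dimmer row gave a log2 fold change of 0.44. Myl12b, a close relative, was at 10.81, 10.78 and 10.79 in control and at 10.99, 11.06 and 11.10 in DKO arrays. Its controls were almost identical, and the log2 fold change of 0.26 ± 0.06 (SE) did not pass in the fit over all genes (limma adjusted p = 0.0854). The 2 genes are near copies, so the split of signal between their rows is uncertain.

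With single arrays dropped, the calls of Myh9 and Myl12a held only without DKO 2. The limma adjusted p rose to 0.143 for Myh9 when control 1 was dropped and to 0.0801 for Myl12a when control 3 was dropped. Myl6, the essential light chain, was at 0.15 ± 0.10 (SE). Mylk, the light chain kinase of smooth muscle, was at 0.02 ± 0.08 (SE).

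Myl9, the regulatory light chain of smooth muscle, varied between DKO embryos in the manner of Acta2. It was at 8.33, 8.18 and 8.21 in control arrays, 8.68 in DKO 1, 7.95 in DKO 2 and 8.25 in DKO 3. The log2 fold change was 0.05 ± 0.16 (SE, limma adjusted p = 0.905) and turned to -0.14 without DKO 1.

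Calponins, transgelins and caldesmon bind along the filament and stabilise it. None of the 7 members passed (limma). At an unadjusted limma p under 0.05, 3 were higher and 1 lower, against 6.39% and 9.18% of all genes. Tagln2, the transgelin of non-muscle cells, was at 8.51, 8.21 and 8.34 in control and 8.87, 8.70 and 8.76 in DKO arrays. Its log2 fold change of 0.42 ± 0.09 (SE) missed the threshold (limma adjusted p = 0.0607), and its adjusted p lay between 0.019 and 0.194 over the alternatives. A second, dimmer row of Tagln2 was at 0.06.

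Tagln3, the transgelin of neurons, was the lowest member by log2 fold change. It was at 9.57, 9.53 and 9.66 in control and 9.27, 9.40 and 9.40 in DKO arrays, so that every DKO array lay below every control. The log2 fold change was -0.23 ± 0.07 (SE, limma adjusted p = 0.151). The log2 value of Tagln2 minus that of Tagln3 was higher in DKO by 0.65 ± 0.13 (SE), with an exact permutation p of 0.1.

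Cnn3, the calponin of non-muscle cells, was at 12.10, 12.09 and 12.16 in control and 12.42, 12.32 and 12.38 in DKO arrays. The groups were apart, with a log2 fold change of 0.26 ± 0.06 (SE, limma adjusted p = 0.0854). Cald1, caldesmon, was at 6.88, 6.91 and 6.81 in control and 7.31, 6.98 and 7.35 in DKO arrays. DKO 2 was its lowest DKO array, and the log2 fold change of 0.35 ± 0.10 (SE) had a limma adjusted p of 0.144, or 0.0189 without DKO 2.

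Cnn2, a calponin found outside smooth muscle as well, was at 8.41, 8.20 and 8.16 in control arrays, and at 8.93, 7.84 and 8.46 in DKO arrays, a wide spread in DKO. Tagln and Cnn1, both smooth muscle genes, had log2 fold changes of 0.17 ± 0.12 (SE) and 0.15 ± 0.13 (SE). For Acta2, Myl9, Cnn2, Tagln and Cnn1, DKO 1 was the highest of all 6 arrays, and DKO 2 was the lowest of the DKO arrays.

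Markers of vessel-associated and meningeal cells were set beside these 5 genes. The mean of 10 meningeal markers was 7.43 in DKO 1, 6.66 in DKO 2 and 7.17 in DKO 3, against 7.05 to 7.34 in controls. The mean of 10 smooth muscle and pericyte markers was 6.72 in DKO 1, 6.53 in DKO 2 and 6.72 in DKO 3, against 6.73 to 6.81 in controls, and 9 of the 10 had a lower mean in DKO with 0 called (limma) and 1 at an unadjusted p under 0.05. All 10 endothelial markers had a lower mean in DKO, with 0 called (limma) and 2 at an unadjusted p under 0.05. A lower mean in DKO was also found for 10064 of all 16724 genes tested. The part of these cells in the values of the 5 genes was not tested. In a bulk sample, fewer cells of a type and less RNA per cell cannot be told apart.

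**Figure D4:**
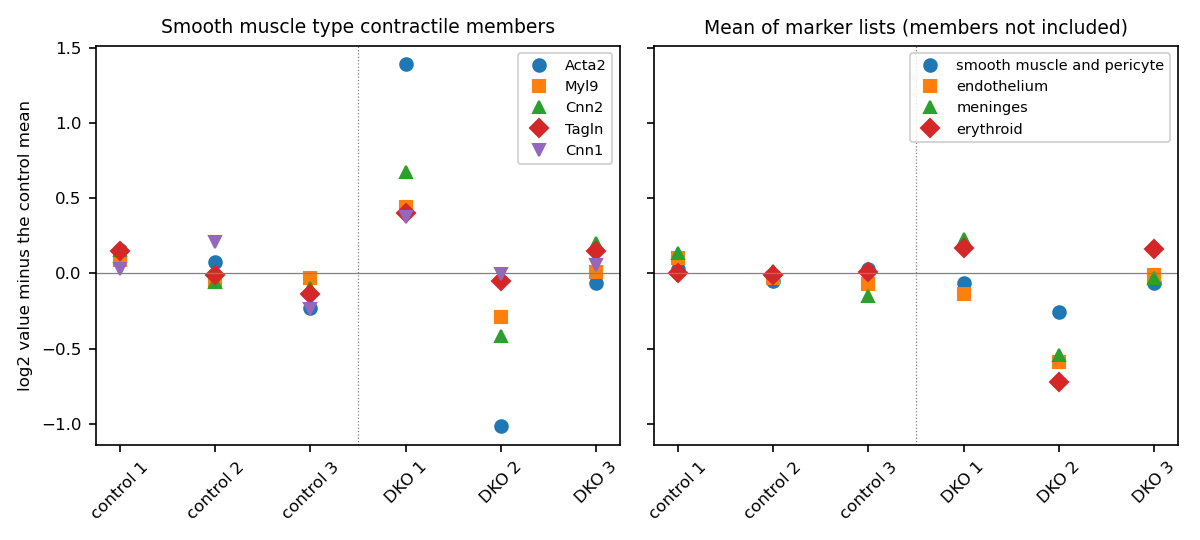
Log2 value minus the control mean in each of the 6 arrays, for 5 contractile members (left) and for the means of 4 marker lists that hold no member (right). In the left panel DKO 1 is the highest array and DKO 2 the lowest DKO array for each gene, with Acta2 spanning 2.41 between them. For Tagln and Cnn1, DKO 2 lies within the range of the controls. In the right panel DKO 2 is the lowest array of each list.

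Ezrin, radixin and moesin tie actin to the plasma membrane, and lamin A lines the nucleus. None of these 4 genes passed (limma), and 0 had an unadjusted p under 0.05. Msn was at 0.14 ± 0.09 (SE), Ezr at 0.12 ± 0.08 (SE) and Rdx at 0.0086 ± 0.06 (SE) in log2 fold change. Lmna, whose level is low in soft tissue, stood at 5.30, 5.38 and 5.11 in control and 5.16, 5.15 and 5.17 in DKO arrays, close to the filter at 5.02, with a log2 fold change of -0.11 ± 0.08 (SE).

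Factors that bind actin monomers or turn filaments over stayed near 0. The 7 log2 fold changes lay between -0.08 and 0.03, and 0 had an unadjusted limma p under 0.05. The cofilins sever old filaments: Cfl1 was at 0.03 ± 0.06 (SE) and Cfl2 at -0.02 ± 0.06 (SE). The profilins feed monomers to growing ends, and Pfn1 was at 0.03 ± 0.06 (SE) and Pfn2 at -0.06 ± 0.06 (SE). Thymosins hold a reserve of monomers, and Tmsb4x and Tmsb10 were both at -0.02 ± 0.07 (SE). Gsn, the severing and capping protein gelsolin, was at -0.08 ± 0.07 (SE).

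Formins nucleate straight filaments. Diaph3 was at 7.46, 7.48 and 7.65 in control and 7.87, 7.66 and 7.70 in DKO arrays, and the 2 groups nearly touched at control 3 and DKO 2. Its log2 fold change was 0.21 ± 0.08 (SE, limma adjusted p = 0.276). Diaph2 was at 0.29 ± 0.12 (SE, limma adjusted p = 0.309) with overlapping groups, and Diaph1 at -0.0012 ± 0.07 (SE).

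The small GTPases of this group include those that switch on contraction through the ROCK kinases. Rhoc was at 8.06, 8.03 and 7.70 in control and 8.33, 8.27 and 8.48 in DKO arrays. Control 3 was its lowest array, the groups did not overlap, and the log2 fold change of 0.43 ± 0.11 (SE) did not pass (limma adjusted p = 0.0978). Rhoa, the best known activator of ROCK, was at 0.02 ± 0.07 (SE), and its other rows were at 0.12 and -0.11. For Rhoc minus Rhoa the log2 value was higher in DKO by 0.41 ± 0.15 (SE), with an exact permutation p of 0.1. Rhob was at 0.13 ± 0.09 (SE), Rnd3, an atypical GTPase that opposes ROCK, at 0.17 ± 0.09 (SE), and Rock1 at 0.06 ± 0.07 (SE).

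Srf and its cofactors differed by small amounts of either sign, and none passed (limma), with 1 at an unadjusted p under 0.05. Srf was at 8.33, 8.17 and 8.22 in control and 8.41, 8.39 and 8.39 in DKO arrays, a log2 fold change of 0.16 ± 0.06 (SE, limma adjusted p = 0.294). Mrtfa was at 7.63, 7.66 and 7.62 in control and 7.60, 7.45 and 7.47 in DKO arrays, or -0.13 ± 0.06 (SE, limma adjusted p = 0.385). Srf was thus higher and Mrtfa lower in every DKO array than in every control. Mrtfb was at -0.07 ± 0.07 (SE).

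**Figure D5:**
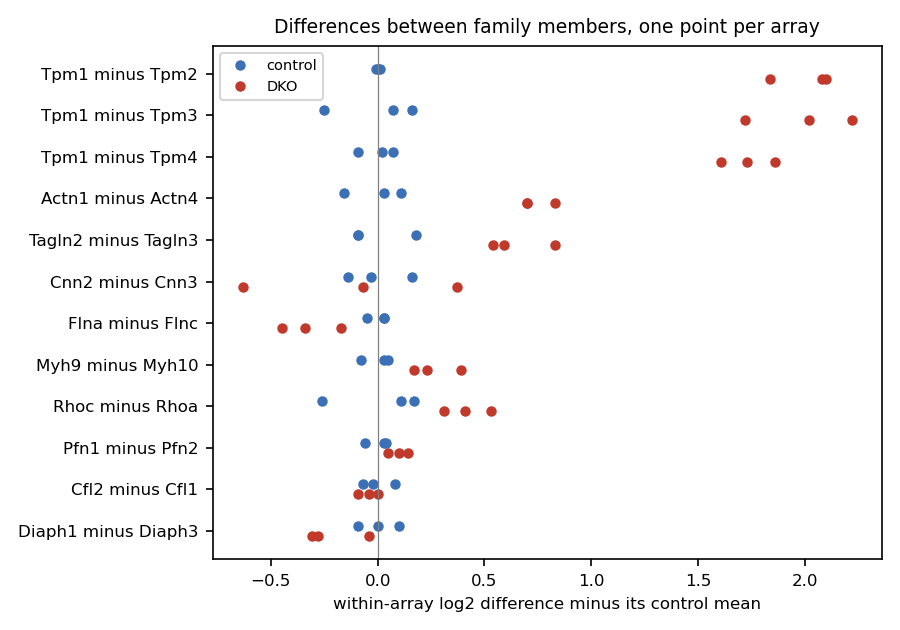
Within-array log2 difference between 2 related genes, minus its control mean (horizontal axis), for 12 pairs, with 1 point per array (control blue, DKO red). The 3 Tpm1 pairs were higher in DKO by 1.74 to 2.00, and the groups overlap for Cnn2 minus Cnn3, Cfl2 minus Cfl1 and Diaph1 minus Diaph3.

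Over the 12 pairs of relatives the within-array difference did not overlap between the groups for 9 pairs, and the exact permutation p was 0.1 for these. Tpm1 is in 3 of the 9, and the shift of Pfn1 minus Pfn2 was only 0.09 ± 0.04 (SE). The share among other gene pairs was not computed, so the count says nothing about relatives in general. Among the 3 pairs that overlapped, the shift from control to DKO was -0.10 ± 0.30 (SE, exact p = 0.8) for Cnn2 minus Cnn3, -0.04 ± 0.05 (SE, exact p = 0.6) for Cfl2 minus Cfl1 and -0.21 ± 0.10 (SE, exact p = 0.2) for Diaph1 minus Diaph3.

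Other genes of the actin system were examined as 4 lists. Of all genes tested, 1.36% were called higher and 0.359% lower (limma). At an unadjusted limma p under 0.05, 6.39% were higher and 9.18% lower. Branched assembly, capping and monomer recycling factors (the Arp2/3 complex, WASP and WAVE proteins, Ena/VASP and capping proteins) held no call: of 22 tested, 0 rose and 0 fell (limma), with 1 higher and 2 lower at an unadjusted p under 0.05 and a median log2 fold change of -0.0021. The smallest p values were those of Wasf1, a WAVE subunit of neurons, at -0.25 ± 0.07 (SE, adjusted p = 0.139) and Wasf3 at -0.21 ± 0.08 (SE, adjusted p = 0.232). Bundling and crosslinking proteins outside the members also held no call among 14 tested (limma), with 2 higher and 1 lower at an unadjusted p under 0.05. Palld, the actin scaffold palladin, was at 0.33 ± 0.08 (SE, adjusted p = 0.096) and Pls3, plastin 3, at 0.26 ± 0.08 (SE, adjusted p = 0.185).

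Of 28 other regulators of myosin and small GTPases tested, 1 rose and 0 fell (limma), against 1.36% and 0.359% of all genes. At an unadjusted limma p under 0.05, 3 were higher and 6 lower, against 6.39% and 9.18% of all genes. The median log2 fold change was -0.05. Rnd2, an atypical small GTPase of neurons, was at -0.29 ± 0.06 (SE, limma adjusted p = 0.0773), and was called lower with a stricter filter (adjusted p = 0.0415) and with a trended and robust variance (adjusted p = 0.0274). Myo6, an unconventional myosin, was at -0.37 ± 0.15 (SE, limma adjusted p = 0.291), and was called lower without control 2 (adjusted p = 0.042). Both were picked after their values were seen. The gene that rose was Arhgap5, which encodes p190B RhoGAP, a protein that switches small GTPases off. It stood at 8.80, 8.77 and 8.73 in control and at 9.30, 9.34 and 9.13 in DKO arrays, a log2 increase of 0.49 ± 0.07 (SE, limma adjusted p = 0.0144). Dropping control 1, control 2, control 3 or DKO 1 ended the call (adjusted p up to 0.0717).

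Of 18 genes known as SRF and MRTF targets outside the members, 3 rose, 0 fell and 15 did not pass, with a median of 0.06. The called share was 16.7%, against 1.72% of all genes tested, in a list chosen with earlier results of these data known. At an unadjusted limma p under 0.05, 5 were higher and 0 lower, against 6.39% and 9.18% of all genes. Without DKO 2 the count called higher was 5. Ccn1 and Ccn2, secreted matricellular proteins that are also classical YAP targets, had log2 fold changes of 1.91 ± 0.11 (SE) and 1.71 ± 0.11 (SE). Zyx, the adhesion protein zyxin, was at 8.84, 8.70 and 8.77 in control and at 9.22, 9.06 and 9.28 in DKO arrays (0.42 ± 0.08 SE, limma adjusted p = 0.0371), and with single arrays dropped its call held only without DKO 2 (adjusted p up to 0.131).

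Hem and choroid plexus markers, from the dorsal midline beside the cortex, were also higher on average in DKO cortex. All 7 tested had a higher mean in DKO, against 39.8% of all genes, and 2 were called (limma), against 1.72% of all genes. The mean over the 8 with a row was 5.77 to 6.14 in control and 6.32 to 6.87 in DKO arrays. Among the DKO arrays Ttr, Otx2 and Wnt2b were highest in DKO 2, which also had the highest mean of the list, while Lmx1a, Rspo2, Wnt8b, Folr1 and Clic6 were highest in DKO 1. The part of this tissue in the members' values was not tested.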

How the data were processed

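The labels name total RNA of 6 cortices, with sense cDNA made from 100 ng of RNA and labelled with biotin. The deposited log2 values were made by the authors with RMA, per the submitters' processing notes; no version is stated there. RMA equalises the distributions of the arrays, so a shift shared by all transcripts is removed. The arrays' number limits the precision, and no detection call was used. Replicates are separate embryos per the labels, and no pair of arrays held the same values (correlations 0.978 to 0.994).

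Of 41345 rows, 23521 had 1 gene symbol in the platform's annotation, 1814 had several and the rest were unnamed here. Genes with a mean under the 25th percentile of these rows (log2 5.02) were not tested. DKO was compared with control in 1 fit over 16724 genes (limma 3.58.1, R 4.3.3, lmFit and eBayes, two-sided, no covariate), with Benjamini-Hochberg adjustment over all of them and a threshold of 0.05. In simulated DKO against control data over 16724 genes the calls included 62.6% of the genes shifted by a log2 difference of 0.5 and 93.8% of those shifted by 1. The members and lists were chosen with earlier results of these data known. All members with a row were named, with Lats1 and Lats2; in each other list the called genes (at most 4) were named, or else the 2 with the smallest p. Alternatives were other filters, repeated quantile normalization, the mean of a gene's rows, a trended and robust variance, the replicate number as a block and leaving out each array. RefSeq promoters were searched over 250 bases before the start.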

Additional observations from a re-analysis of the deposited data

Results flagged for a closer look

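Rows of members that the comparison did not use, because a brighter row of the same gene was kept, were examined as well. In 2 of them all DKO arrays lay above all control arrays. The dimmer Myl12a row stood at 5.85, 6.05 and 5.97 in control and at 6.61, 6.22 and 6.36 in DKO arrays, a log2 fold change of 0.44. A row of Actg1 stood at 6.90, 6.79 and 6.71 in control and at 7.07, 7.06 and 7.22 in DKO arrays, a log2 fold change of 0.31, while the brightest Actg1 row was at 0.06. These rows were not tested.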

How the results depend on the processing

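The count of 5 members higher in DKO was 8 with the stricter filter (Tagln2, Myl12b and Cnn3 added) and 10 with a trended and robust variance (Flna and Rhoc added to these), and 2 to 7 when 1 array was left out. No member was called lower in any setting. The median log2 fold change of the members was 0.06 to 0.19 when 1 array was left out. Over all genes, 345 were higher with the trended and robust variance and 121 to 260 when 1 array was left out, against 228; 134 were lower with the stricter filter, 185 with the trended and robust variance and 11 to 54 when 1 array was left out, against 60. The labels do not tie replicate numbers to litters or days, and the deviations of same-numbered arrays correlated at -0.103, 0.209 and 0.152, so they were not taken as pairs. With the replicate block 5 members and 176 genes were higher and 24 genes were lower; Myh9 was not called (adjusted p = 0.0684) and Tagln2 was (0.0499).

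The sign of 13 members that were not called changed under some alternative, and none was called there. When single arrays were dropped the log2 fold changes of these members lay between -0.02 and 0.11 for Tpm2, -0.03 and 0.15 for Tpm3, -0.55 and 0.66 for Acta2, -0.14 and 0.22 for Myl9, -0.03 and 0.09 for Mylk, -0.11 and 0.44 for Cnn2, -0.02 and 0.05 for Rdx, -0.03 and 0.02 for Cfl2, -0.06 and 0.0086 for Tmsb10, -0.05 and 0.03 for Tmsb4x, -0.04 and 0.05 for Diaph1, -0.0065 and 0.09 for Rock1 and -0.03 and 0.06 for Rhoa. By quantile normalization Tmsb10 went to 0.0035 and Diaph1 to 0.01. The sign changed on dropping control 1 (Mylk, Rdx, Tmsb10, Diaph1), control 2 (Tpm2, Tpm3, Mylk, Rock1, Rhoa), control 3 (Acta2, Cfl2, Tmsb4x, Diaph1), DKO 1 (Tpm2, Acta2, Myl9, Cnn2, Rdx, Tmsb10, Tmsb4x, Rhoa), DKO 2 (Rdx) or DKO 3 (Tpm3, Mylk, Diaph1). Zyx lost its call with no filter (adjusted p = 0.0503) and with the replicate block (0.0575).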
